A study of Aspergillus oryzae with 8 samples.

Results

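The 16 genes described here are those of Aspergillus oryzae RIB40 whose transcripts were strongly lowered by dithiothreitol (DTT) both on a solid surface and in liquid culture. They were chosen on CPM (the reads of a gene per 1000000 reads assigned to genes in its library). A gene was kept where its lowest CPM in the 4 control libraries was 10 or more and at least 5 times its highest CPM in the 4 DTT libraries. Of 11880 genes in the files 4997 met the first limit, and 16 of these (0.32%) met the second. A list of 10 genes was to be left out of the choice, but 0 of them met the rule, their ratios of lowest control to highest DTT CPM being 0.711 to 3.44. All 16 members are protein-coding in RefSeq's table for ASM18445v3, which gives a symbol to 714 of 12347 genes and to 0 of the 16, so they are called by locus tag and no role is stated for them.

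A. oryzae is a filamentous fungus used in food fermentation, and it secretes large amounts of enzymes through the endoplasmic reticulum (ER). DTT is a reducing agent that breaks the disulfide bonds of proteins folding in the ER, which sets off the unfolded protein response, in which the transcription factor HacA raises genes of ER chaperones. In Trichoderma reesei and Aspergillus niger the same agent is known to lower transcripts of secreted enzymes, a response called repression under secretion stress. Whether any of the 16 genes encodes a secreted protein was not examined, since neither the files nor the reference describe their products.

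The 8 libraries were of polyadenylated RNA, with 2 per condition in 4 conditions of strain RIB40 in minimal medium with 2.0% glucose at pH 5.5. Solid DTT libraries came from mycelium carried on its cellophane sheet to filter paper soaked in medium with 20 mmol/L DTT, and solid controls from mycelium grown on a cellophane-covered agar plate at 30 °C for 40 h. Liquid DTT libraries came from cultures to which DTT was added to 20 mmol/L, and liquid controls from flasks shaken at 200 rpm for 40 h at 30 °C. The labels give no exposure time to DTT, and no growth time, temperature or shaking for the DTT libraries. They describe no transfer to filter paper for the solid controls, so as labelled DTT and the transfer cannot be told apart in solid culture. They also do not tell whether both libraries of a condition had their own culture. The p-values therefore cover the spread between libraries alone, and that spread could be technical.

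The libraries held 5880753 to 8912897 reads, of which 8.2% to 37.6% fell on rRNA genes, with the highest share in solid DTT replicate 1. A count of 3 reads equalled 0.337 to 0.51 CPM. Replicate 1 of every condition was a library of 500 bp fragments and replicate 2 one of 200 bp fragments. In a fit across 9438 genes, 4 of 7 genes of ER folding and degradation rose under DTT on the solid surface and 4 of 7 in liquid, where 4.86% and 8.91% of all tested genes rose (edgeR quasi-likelihood F test, BH-adjusted p under 0.05, BH standing for Benjamini-Hochberg). Of 5 genes of conidia and conidiophores (spore-forming structures a mycelial culture may also hold) only flbD (AO090005000765) was called, lower under DTT in solid culture. Each of the 5 was read in every library, brlA (AO090005001041), the master regulator of conidiation in Aspergillus nidulans, at 1.28 to 23.3 CPM. Their summed level was 92.4 to 134 CPM in solid DTT and 121 to 196 CPM in solid control libraries, and 139 to 204 CPM in liquid DTT and 136 to 155 CPM in liquid control libraries. Of 3 genes listed as hyphal (gpdA, chsA and chsB) 0 were called in either culture, but their sum was lower with DTT in both. It was 3785 to 6448 CPM in solid DTT and 7489 to 9172 CPM in solid control libraries. In liquid it was 4846 to 4979 CPM in DTT and 7385 to 11900 CPM in control libraries. That sum was mostly gpdA, which had 3689 to 11700 CPM over the 8 libraries. The lowest control value of gpdA, 7252 CPM, was above its highest DTT value, 6392 CPM. The range was 46.8 to 114 CPM for chsA and 8.48 to 85.1 CPM for chsB. The part of these shifts in the members' values was not tested. In bulk RNA, fewer cells that express a gene and less of its RNA per cell cannot be told apart.

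**Figure D1:**
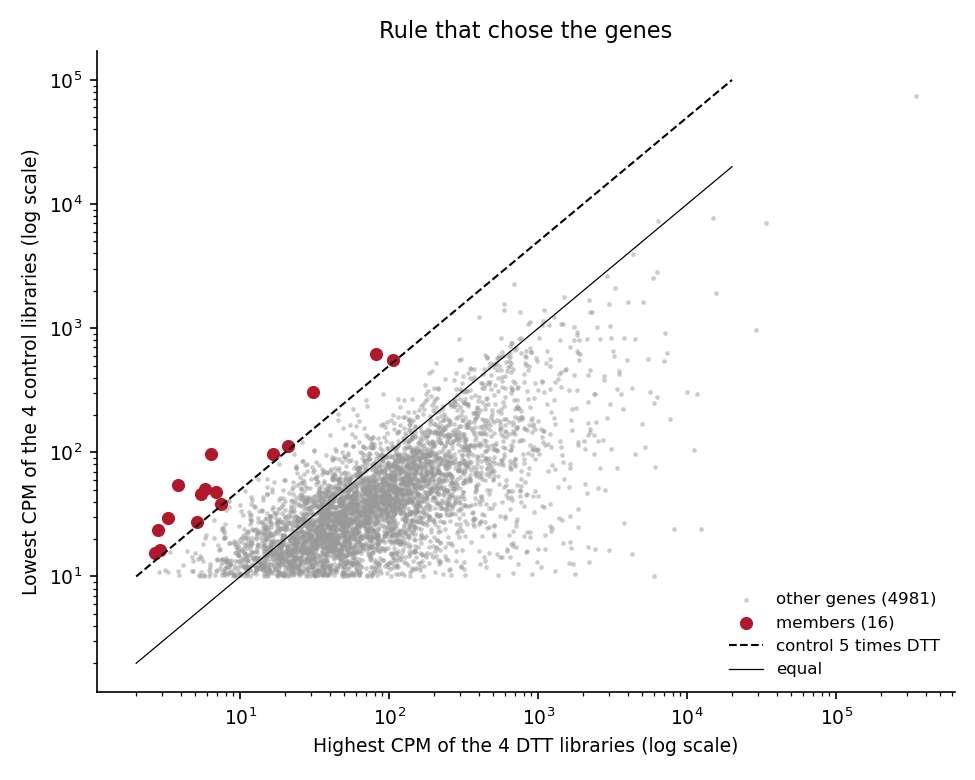
Lowest CPM of the 4 control libraries (vertical, log scale) against highest CPM of the 4 DTT libraries (horizontal, log scale) for the 4997 genes with a lowest control CPM of 10 or more. The 16 members (red) lie on or above the dashed line at which the control value is 5 times the DTT value.

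The members differed widely in level without DTT. 3 of them exceeded 300 CPM in every control library. AO090023000702 had 43.8 and 67.7 CPM in the solid DTT libraries (replicates 1 and 2, as throughout) against 614 and 1417 CPM in the solid controls, and 34.9 and 81.7 CPM in the liquid DTT libraries against 1453 and 2338 CPM in the liquid controls. AO090003001047 had 100 and 106 CPM in solid DTT against 956 and 959 CPM in solid control, and 97.1 and 59.1 CPM in liquid DTT against 784 and 551 CPM in liquid control. AO090026000775 had 30.8 and 26.3 CPM in solid DTT against 677 and 747 CPM in solid control, and 19.3 and 21.9 CPM in liquid DTT against 359 and 304 CPM in liquid control. All 3 were therefore still read at 117 reads or more in every DTT library, and AO090003001047 kept the highest DTT level of all members. In AO090023000702 replicate 2 was the higher in all 4 conditions.

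AO090038000471 showed the largest span. It had 6.29 and 21.0 CPM in solid DTT against 554 and 1530 CPM in solid control, and 0 and 1.49 CPM in liquid DTT against 113 and 333 CPM in liquid control. It had 0 reads in liquid DTT replicate 1, where 3 reads would be 0.494 CPM, and 13 reads in liquid DTT replicate 2, against 667 and 2609 reads in the liquid controls. Both solid libraries were above both liquid libraries, with DTT and without, and replicate 2 was the higher in all 4 conditions.

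3 further genes had control levels of 50.8 to 271 CPM. AO090026000078, the member with the largest ratio of lowest control to highest DTT CPM (15.2), had 5.33 and 6.40 CPM in solid DTT against 271 and 155 CPM in solid control, and 3.13 and 1.6 CPM in liquid DTT against 211 and 97.5 CPM in liquid control. AO090003000570 had 4.38 and 16.6 CPM in solid DTT against 101 and 170 CPM in solid control, and 1.65 and 5.03 CPM in liquid DTT against 96.9 and 165 CPM in liquid control. AO090001000564 had 1.78 and 0.673 CPM in solid DTT against 110 and 79.3 CPM in solid control, and 4.78 and 5.83 CPM in liquid DTT against 85.4 and 50.8 CPM in liquid control. The control libraries of AO090003000570 were nearly alike between the cultures. AO090001000564 was the 1 member with both liquid DTT libraries above both solid DTT libraries.

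The other 9 members had a lowest control level of 15.5 to 54.4 CPM. AO090005001331 had 1.37 and 3.81 CPM in solid DTT against 66.4 and 54.4 CPM in solid control, and 0.824 and 1.49 CPM in liquid DTT against 70.7 and 58.4 CPM in liquid control. Its control values were among the most even of all members, and its ratio of 14.3 was second to that of AO090026000078. AO090003000543 had 3.83 and 6.84 CPM in solid DTT against 48.2 and 70.3 CPM in solid control, and 2.64 and 3.20 CPM in liquid DTT against 49.1 and 51.9 CPM in liquid control. AO090103000091 had 5.47 and 2.36 CPM in solid DTT against 52.3 and 46.2 CPM in solid control, and 3.79 and 2.06 CPM in liquid DTT against 137 and 58.2 CPM in liquid control. AO090003000514 had 2.32 and 7.40 CPM in solid DTT against 38.0 and 61.8 CPM in solid control, and 2.97 and 1.03 CPM in liquid DTT against 65.3 and 86.4 CPM in liquid control. The last 2 genes were higher in liquid than in solid culture in every pair of control libraries, whereas AO090003000543 overlapped between the cultures.

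AO090001000386 had 2.32 and 3.25 CPM in solid DTT against 35.0 and 42.6 CPM in solid control, and 0.824 and 0.914 CPM in liquid DTT against 32.6 and 29.7 CPM in liquid control. AO090020000508 had 1.5 and 2.80 CPM in solid DTT against 38.4 and 31.4 CPM in solid control, and 0.824 and 0.571 CPM in liquid DTT against 69.9 and 23.5 CPM in liquid control. Each of these 2 genes had 5 to 8 reads in each liquid DTT library, close to the floor of 3 reads. AO090010000145 had 2.19 and 5.16 CPM in solid DTT against 28.3 and 51.4 CPM in solid control, and 2.64 and 3.31 CPM in liquid DTT against 34.3 and 27.6 CPM in liquid control. AO090020000137 had 2.87 and 2.36 CPM in solid DTT against 24.1 and 34.0 CPM in solid control, and 1.48 and 0.80 CPM in liquid DTT against 34.0 and 16.5 CPM in liquid control. AO090120000058 had 2.19 and 2.69 CPM in solid DTT against 77.1 and 15.5 CPM in solid control, and 1.98 and 1.14 CPM in liquid DTT against 30.9 and 21.6 CPM in liquid control. Its solid controls thus stood at 476 and 127 reads, replicate 1 being far the higher.

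**Figure D2:**
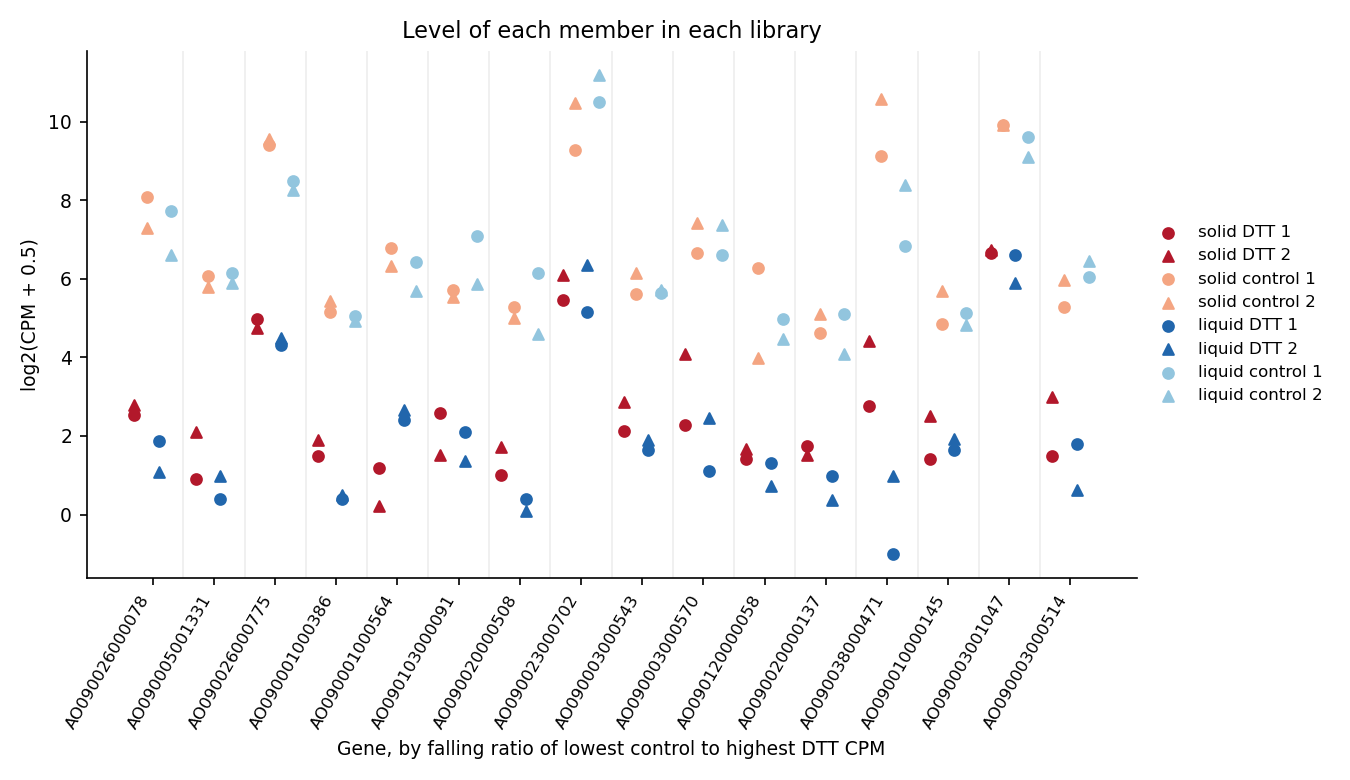
Level of the 16 members as log2(CPM + 0.5) (vertical) in the 8 libraries, from left to right within a gene solid DTT, solid control, liquid DTT and liquid control, with circles for replicate 1 and triangles for replicate 2. Every control point lies above every DTT point of its gene, as the rule requires, and AO090038000471 has its lowest point at 0 CPM in liquid DTT replicate 1.

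Set against coding length, which was recovered from the deposited coverage fractions, the order of the control levels was led by the shortest gene. The members were 339 to 2892 bp long with a median of 1524 bp, and the median was 1380 bp over the 4938 genes with a lowest control CPM of 10 or more whose length could be recovered. AO090023000702 (339 bp) had 4293 ± 2077 control CPM per kb (SD, n = 4 libraries of both cultures) and AO090003001047 (501 bp) 1622 ± 384 CPM per kb. AO090026000775 (1617 bp) followed with 323 ± 138 CPM per kb and AO090038000471 (2892 bp) with 219 ± 216 CPM per kb. AO090001000386 (2370 bp, 14.8 ± 2.32 CPM per kb) and AO090120000058 (2445 bp, 14.8 ± 11.4 CPM per kb) were the lowest. Of the 15 neighbouring pairs in this order 14 overlapped in their control ranges, and the gap between AO090003001047 and AO090026000775 was the exception. Genes shorter than 600 bp (3 members) may lose reads in libraries of 500 bp fragments. The short AO090023000702 was higher in replicate 2 in all 4 conditions. So were the longer AO090038000471, AO090003000570 (1596 bp) and AO090003000543 (1017 bp). AO090005001331 (468 bp) was higher in replicate 2 in both DTT conditions and lower in both controls, and AO090003001047 was lower in replicate 2 in both liquid conditions. The part of fragment size in these values was not tested.

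The limit of 5 fell within a continuous range of ratios. Just inside it were AO090003000514 (5.14), AO090003001047 (5.17), AO090010000145 (5.34), AO090038000471 (5.41) and AO090020000137 (5.73). Just outside it were AO090011000235 (4.92), AO090005001229 (4.87), AO090012000234 (4.70), AO090023000196 (4.66) and AO090023000264 (4.64), the last being akr1, whose homologue in Saccharomyces cerevisiae attaches palmitate to proteins. The rule also depended on how libraries were scaled. With rRNA genes left out of the totals, 16 genes met it and 13 of them were members, and with TMM-scaled totals (a scaling by the trimmed mean of log ratios between libraries) 18 genes met it and 13 were members. The same 3 members were lost under each, AO090003001047 (ratios 4.07 and 3.56), AO090020000137 (4.24 and 4.12) and AO090120000058 (4.80 and 4.94). The mirrored rule, with a lowest DTT level of 10 CPM or more and at least 5 times the highest control level, was met by 72 genes.

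The size of the fall is a description, since the rule used these values. Falls were large in both cultures. The log2 fold changes of edgeR's fit ran between -6.29 and -3.17 in solid culture (median -3.91, against -0.05 over all 9438 tested genes) and between -7.95 and -2.79 in liquid (median -4.83, against -0.03). All 16 members passed the filter on low counts and were called lower in each culture, where 4.44% of all tested genes were called lower in solid culture and 11.1% in liquid, and nothing is read from that count. The deepest falls were those of AO090038000471, at -6.29 ± 1.09 in solid and -7.95 ± 1.21 in liquid culture (log2 ± SE, n = 2 libraries per condition). AO090001000564 stood at -6.20 ± 0.77 in solid and -3.48 ± 0.66 in liquid culture. AO090026000078 stood at -5.20 ± 0.76 and -5.78 ± 0.80, and AO090005001331 at -4.61 ± 0.53 and -5.60 ± 0.57, again solid before liquid. The smallest falls were those of AO090003001047, at -3.17 ± 0.65 and -2.79 ± 0.64. Not all members were still called when 1 library of a culture was left out, above all in solid culture. Those calls were not set beside the share of all tested genes, so nothing is read from their number. The log2 fold changes of the members then ranged from -7.40 to -2.50 in solid culture and from -13.54 to -2.24 in liquid.

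**Figure D3:**
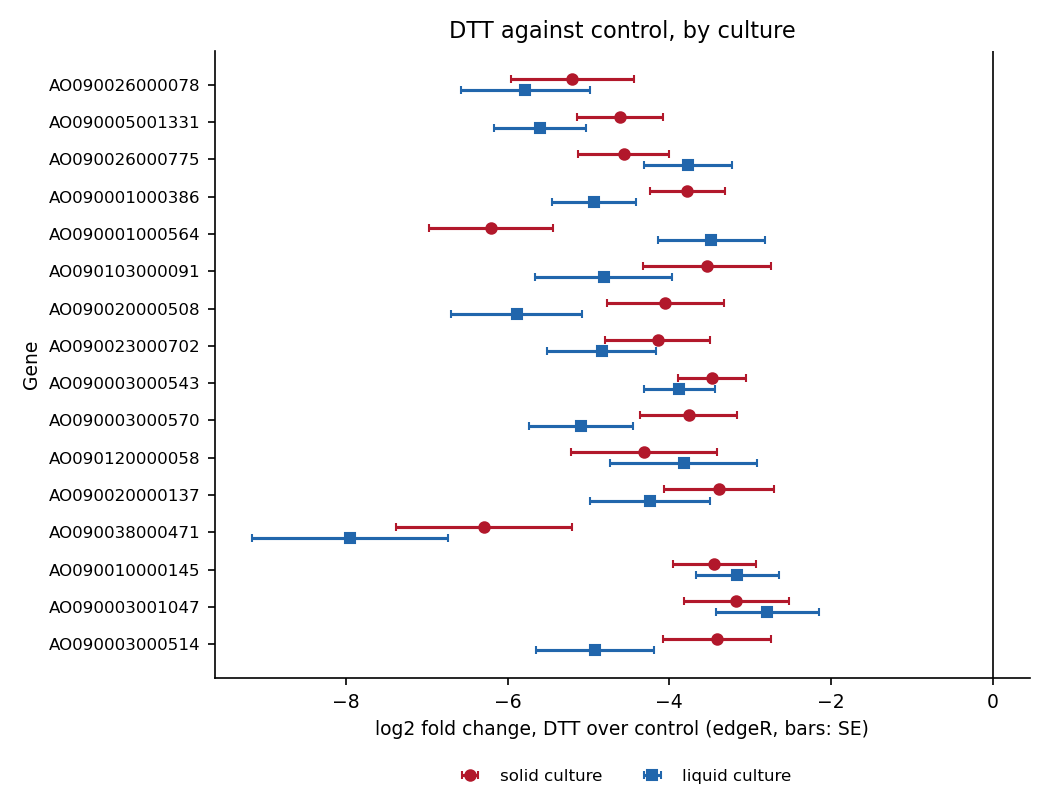
Log2 fold change of DTT over control (horizontal) with its SE (bars) for each member in solid culture (red circles) and liquid culture (blue squares), n = 2 libraries per condition. The values lie at -2.79 or lower, and AO090038000471 has the lowest value in each culture.

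Within libraries of the same fragment size, the level in the control exceeded that in the DTT library by 5.74 to 118 times in solid culture (median 14.7) and by 8.08 to 229 times in liquid (median 28.4), with DTT counts under 3 reads set to 3. The lowest value was that of AO090120000058 in replicate 2 on the solid surface and the highest that of AO090038000471 in replicate 1 in liquid, which is a bound against the floor of 3 reads. In 11 of 16 members the ratio was larger in liquid than in solid culture in both replicate numbers, and in 2 it was smaller in both, where 45.2% and 22.4% of the 4997 genes with a lowest control CPM of 10 or more did the same. The difference of the DTT effects was tested directly, and although the rule bounds both effects it does not set which is larger. By the BH-adjusted edgeR test 0 of 16 members differed (0% of all tested genes in either direction), and 1 did at an unadjusted p under 0.05, as 10.6% of all tested genes did. DESeq2 called 0 members and 2.07% of all genes it tested. The lowest p was that of AO090001000564, whose fall was deeper in solid culture, with a log2 difference of -2.72 ± 0.91 (edgeR adjusted p = 0.339, unadjusted p = 0.0154, with an adjusted p of 0.097 to 0.703 over the alternatives). AO090020000508 followed with a fall that was deeper in liquid by 1.84 ± 1.0 (adjusted p = 0.564 in the same edgeR test), and AO090003000514 stood at 1.51 ± 0.90, AO090003000570 at 1.33 ± 0.78 and AO090001000386 at 1.16 ± 0.64, with edgeR adjusted p of 0.614, 0.60 and 0.576. The difference of AO090020000508 was 0.64 without liquid control replicate 1. That of AO090003000514 was 0.73 without liquid DTT replicate 2, 0.88 without solid DTT replicate 2 and 2.80 without liquid DTT replicate 1. That of AO090003000570 was 0.55 without solid DTT replicate 2.

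Solid and liquid culture were compared next, without DTT and with it. The rule did not use this contrast but limits it, because the lowest control of either culture had to exceed 5 times the highest DTT library of either. Without DTT the BH-adjusted edgeR test called 0 of 16 members, where 2.23% of all tested genes were higher in solid and 1.66% lower. At an unadjusted p under 0.05 it was 1 member, against 18.3% of all tested genes, and DESeq2 called 1 (8.86% of all genes it tested). That member, AO090038000471, stood at 1042 ± 690 CPM in solid and 223 ± 155 CPM in liquid control (SD, n = 2 each), with a log2 fold change of 2.24 ± 0.90. Its edgeR adjusted p was 0.227, and 0.0384 with the replicate number (fragment size) as a block, a fit that called 8.17% of all tested genes. AO090026000775 was at 712 ± 49.5 CPM in solid and 331 ± 39.0 CPM in liquid control, a log2 fold change of 1.10 ± 0.49 (edgeR adjusted p = 0.28). AO090023000702 (-0.91 ± 0.58) and AO090103000091 (-1.02 ± 0.71) had negative values, higher in liquid, and AO090120000058 (0.90 ± 0.78) a positive one, with edgeR adjusted p of 0.452, 0.505 and 0.604. The value of AO090120000058 was -0.92 without solid control replicate 1 and 1.68 without solid control replicate 2, 1.35 without liquid control replicate 1 and 0.52 without liquid control replicate 2. That of AO090103000091 was -0.07 without liquid control replicate 1 and -1.63 without liquid control replicate 2, and that of AO090023000702 was -0.52 without solid control replicate 1 and -1.43 without solid control replicate 2. In 4 members both solid controls exceeded both liquid controls and in 3 both were lower, where 21.2% and 19.5% of the 4997 genes with a lowest control CPM of 10 or more did the same.

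Under DTT the same test called 0 of 16 members between the cultures, where 2.35% of all tested genes were higher in solid culture and 0.593% lower. At an unadjusted p under 0.05 it was 4 members, against 23.5% of all tested genes, and DESeq2 called 2 (11.1% of all genes it tested). AO090038000471 stood at 13.6 ± 10.4 CPM in solid and 0.743 ± 1.05 CPM in liquid DTT (SD, n = 2 each), with a log2 fold change of 3.90 ± 1.05. Its edgeR adjusted p was 0.0752, and 0.0164 with the block. The value was 3.13 without liquid DTT replicate 1, and 9.52 without liquid DTT replicate 2, a fitted value that rests on the library with 0 reads. AO090001000564 was the reverse, at 1.23 ± 0.78 CPM in solid and 5.30 ± 0.74 CPM in liquid DTT, with a log2 fold change of -2.24 ± 0.70. Its edgeR adjusted p was 0.104, and 0.0235 with the block, which called 10.5% of all tested genes. Its log2 fold change was -3.42 without solid DTT replicate 1 and -1.46 without solid DTT replicate 2. AO090001000386 (1.46 ± 0.50), AO090003000570 (1.40 ± 0.57) and AO090020000508 (1.38 ± 0.78) were not called, with edgeR adjusted p of 0.123, 0.186 and 0.32. AO090003000570 stood at 0.58 without solid DTT replicate 2 and AO090020000508 at 0.81 without liquid DTT replicate 2. In all, 14 of 16 members had a positive log2 fold change, higher in solid DTT, with a median of 0.77 against 0.02 over all tested genes. Without liquid DTT replicate 2 it was 11 of 16 and a median of 0.23 against 0.15 over all tested genes, and without solid DTT replicate 1 it was 11 of 16 and a median of 0.64. Both solid DTT libraries exceeded both liquid DTT libraries in 9 members and were below them in 1, where 26.7% and 13.8% of the 4997 genes did so. The highest DTT value, which the rule reads, was in a solid library for 14 of 16 members and in solid DTT replicate 2 for 11. No share over all genes was computed for these counts or for the 14 positive values, so nothing is read from them. Solid DTT replicate 2 also had the largest TMM factor of the 8 libraries (1.249), and its part in the CPM counts was not tested. The DTT values rest on few reads, since 7 of 16 members had under 50 reads in every DTT library.

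**Figure D4:**
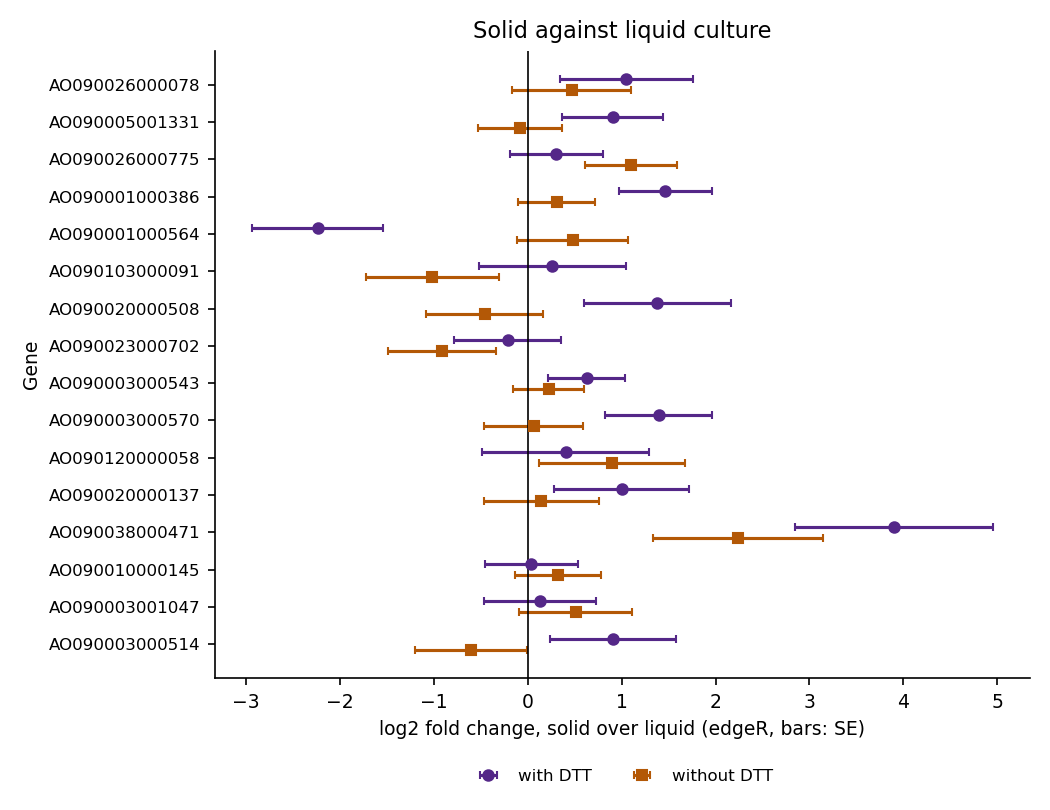
Log2 fold change of solid over liquid culture (horizontal) with its SE (bars) for each member with DTT (purple circles) and without DTT (brown squares), n = 2 libraries per condition. AO090038000471 has the highest value of each comparison, 3.90 with DTT and 2.24 without, and AO090001000564 the lowest with DTT, -2.24.

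Requiring the fall across cultures and not only within each narrowed the choice. The same limits applied to the libraries of 1 culture were met by 130 genes in solid and 313 in liquid culture, 2.34% and 5.74% of the genes with a lowest control CPM of 10 or more in that culture. The 42 genes that met them in each culture were 32.3% of the solid and 13.4% of the liquid set, and 16 of these were the members. The other 26 included 6 of the genes on the list to be left out, among them treA (AO090120000052) of trehalose breakdown, sC (AO090020000349) of sulfate assimilation and leu2A (AO090005001122) of leucine synthesis. Between the cultures 5 of these 26 genes were called without DTT (4 higher in solid, 1 lower) and 4 with DTT (4 higher in solid), against 0 of 16 members in each case by the same edgeR test. With the replicate block 8 of the 26 were called without DTT and 8 with DTT, against 1 and 2 of the 16 members. The rule itself removes genes whose level differs between cultures, so no test was made of that difference. The median size of the log2 fold change between the cultures, without sign, was 0.475 in the members and 1.16 in the 26 genes without DTT, and 0.906 and 1.64 with DTT.

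In the gene order of the reference the members lay on 6 of the 10 sequences, 6 of the 16 on 1 of them. The latter count was not set beside the share of all genes on that sequence, so nothing is read from it. Within 3 positions of another member stood 0 members. The closest were AO090003000514, AO090003000543 and AO090003000570, which were 27 and 25 positions apart. Their locus tags share the prefix AO090003 with 4 members in all, a prefix that 11.1% of reference genes carry. Among the genes within 3 positions on either side of a member, 70 of 96 were tested. In solid culture 5 of these 70 fell under DTT (7.14%, against 4.44% of all tested genes) and 1 rose, and in liquid 12 fell (17.1%, against 11.1%) and 4 rose. The median log2 fold change of these neighbours was -0.24 in solid and -0.04 in liquid culture, against -0.05 and -0.03 over all tested genes. In size the values went beyond 1 in 30 neighbours in solid and 38 in liquid culture, where 42.4% and 50.5% of all tested genes did. Over the 24 tested genes directly next to a member the medians were -0.67 in solid and -0.75 in liquid culture, with 2 called lower in solid (8.33%) and 4 in liquid (16.7%).

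3 of the 70 neighbours fell in both cultures (4.29%), 2 of them directly next to a member (8.33% of 24), where 2.62% of all tested genes did. AO090003001045, the gene gldB, 2 positions from AO090003001047, is named after the glycerol dehydrogenase of Aspergillus nidulans. It had 23.2 and 91.4 CPM in solid DTT against 468 and 605 CPM in solid control, and 16.3 and 23.2 CPM in liquid DTT against 295 and 322 CPM in liquid control. Its log2 fold changes were -3.33 ± 0.57 and -3.74 ± 0.58. AO090003000513, next to AO090003000514, had 10.8 and 10.7 CPM in solid DTT against 58.8 and 56.0 CPM in solid control, and 7.42 and 3.31 CPM in liquid DTT against 60.7 and 49.0 CPM in liquid control. Both genes met the limits within each culture without being members. AO090103000090, next to AO090103000091, had 0.684 and 0.785 CPM in solid DTT against 6.15 and 10.5 CPM in solid control, and 0 and 0.343 CPM in liquid DTT against 11.9 and 20.3 CPM in liquid control. The labels do not mention strand, so where such neighbours overlap their reads cannot be told apart. Other adjacent genes were not called lower in both cultures. AO090001000385 next to AO090001000386 also had negative values (-2.43 ± 0.75 in solid, not called, and -3.42 ± 0.83 in liquid, called). AO090003001046, between gldB and AO090003001047, had -2.2 ± 0.95 in solid and -2.4 ± 0.96 in liquid culture, and neither was called. On the other side of AO090003001047, AO090003001049 rose in liquid culture (1.97 ± 0.47).

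**Figure D5:**
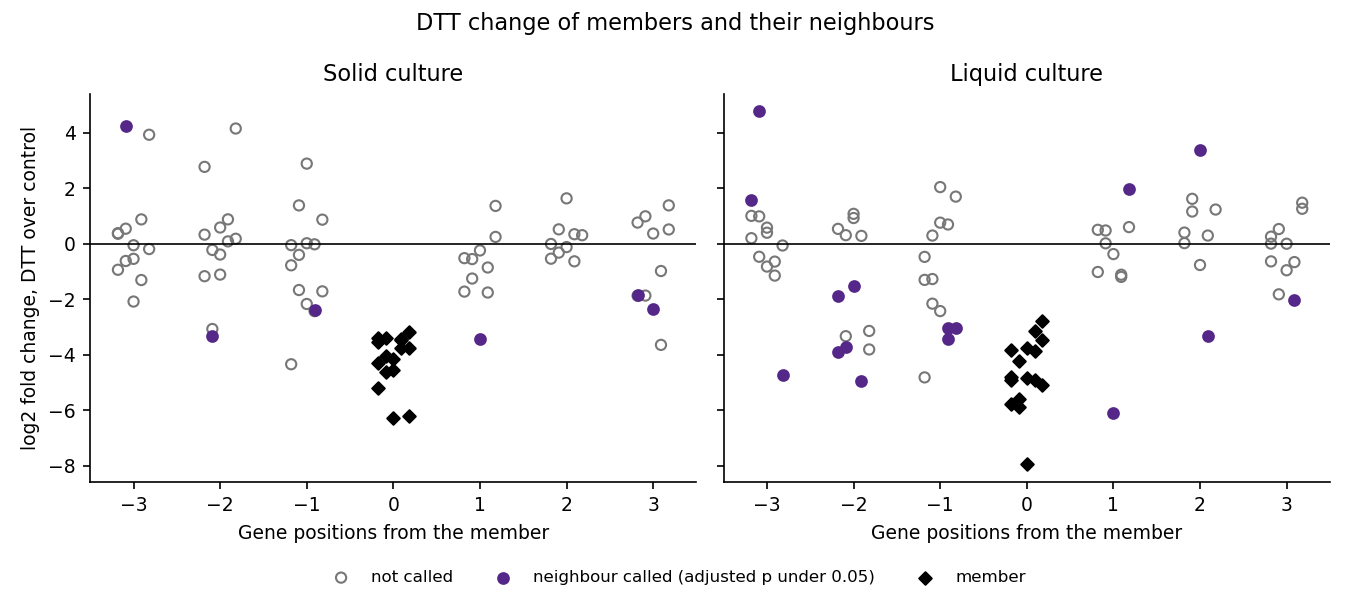
Log2 fold change of DTT over control (vertical) for members (black diamonds, position 0) and for tested genes up to 3 positions away on either side (horizontal), in solid culture (left) and liquid culture (right), filled where a neighbour was called at an adjusted p under 0.05. Neighbours lie on both sides of 0, 30 of 70 beyond 1 in size in solid and 38 of 70 in liquid culture, with 5 called lower in solid and 12 in liquid culture.

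The lists of pathway genes were filled by symbol, so they could hold none of the 16 members, and 8 of the 10 genes to be left out of the choice are on them. They are given for what other genes did in the same libraries. Of 3 genes of branched-chain and leucine synthesis (leu2A, ilv3 and luA) 3 fell in each culture, with a median log2 fold change of -3.37 in solid and -3.98 in liquid, against -0.05 and -0.03 over all tested genes as given above, among them leu2A with a ratio of lowest control to highest DTT CPM of 3.28. Of 4 sulfur assimilation genes 2 fell in each culture (medians -2.40 and -2.08), sC (ratio 3.08), which activates sulfate, and mde1 (AO090009000312, ratio 2.82) of methionine salvage. The sterol and isoprenoid list held 20 genes, taken by symbols starting erg or hmg, plus idi1 and mvd1. Of these 1 rose and 4 fell in solid culture, and 2 rose and 7 fell in liquid (medians -1.14 and -0.91). The 2 that rose in liquid were erg8 (AO090010000471) and hmgX (AO090003000209). Whether hmgX and hmgA (AO090003000210) belong to this pathway was not checked, so the counts and medians are those of the symbol list. The sterol isomerase gene erg2 (AO090003000904) had a ratio of 3.44. In zinc uptake 2 of 5 genes fell in each culture (medians 0.41 and -1.59), aspf2 (AO090005000939, ratio 3.32) and the transporter gene zrfC (AO090005000940, ratio 0.822). Of 11 tested iron uptake genes 3 fell in solid culture (sidJ, mirB and mirD) and 0 in liquid (medians -1.72 and 0.28). The median difference of their DTT effects, solid minus liquid, was -1.53 against 0.06 over all tested genes. By edgeR that difference was called for 0 genes of the list, but also for 0% of all tested genes, so nothing is read from that count. Of 5 ribosomal protein genes 0 fell in solid and 4 in liquid culture (medians -1.99 and -2.61), and of 8 ribosome assembly genes 1 and 4 fell (medians -1.17 and -1.12). For these 2 lists too, edgeR called the difference of the DTT effects for 0 genes, with the same 0% over all tested genes. Of all tested genes 4.44% were called lower in solid culture and 11.1% in liquid.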

How the data were processed

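The deposited tables hold, per the file headers, a raw count of mapped reads per gene and a coverage fraction, both made by the authors. Aligner, build and treatment of multi-mapped reads were not given in the sources used here. CPM are counts over the library total, with an absent gene at 0. Coding lengths are the smallest that turn all coverage fractions of a gene into whole bases, and may be divisors of the true ones. The floor of 3 reads covers counting error only.

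The test was edgeR 4.0.16 under R 4.3.3 (filterByExpr with minimum count 10, TMM factors 0.73 to 1.25, glmQLFit and glmQLFTest), with all 8 libraries in 1 fit, 4 residual degrees of freedom and Benjamini-Hochberg adjustment over 9438 genes. SE were taken as the log2 fold change over the root of F. The step was also run on simulated counts, with changes set in the solid controls alone and no replicate effect. That run therefore does not check the fit for paired libraries. Replicate numbers coincide with fragment size in the labels, and the differences between replicates 2 and 1 correlated between conditions at 0.24 to 0.512 over all 6 pairs, so they pair the libraries. The fit above did not use this pairing, which only the fit with the replicate block did. Calls given for neighbours and for genes of the lists are from the fit without the block. Within conditions, libraries differed beyond counting error (chi-square over its degrees of freedom 166.3 to 245.9).

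Members and lists were chosen with earlier results of these data known. Named were all 16 members, the genes nearest the limit of the rule, for each culture comparison and the difference of DTT effects the 5 members with the lowest p (as under 3 were called), and genes of lists filled by symbol. The neighbours printed were singled out after their values were seen. All 11880 locus tags matched RefSeq's table of ASM18445v3, used for names and gene order only. Planned descriptions of proteins and promoters were not made. DESeq2 1.42.0, other scalings, no filter, the block, fits on 4 libraries and each library left out were tried.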

Additional observations from a re-analysis of the deposited data

How the results depend on the processing

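The members kept a fall in each culture under all 448 alternative values of their DTT effects, with log2 fold changes from -13.54 to -2.24. Some of these values were no longer called. The rule had chosen the members on the same libraries, which set the direction in advance, so nothing is read from it. Leaving out 1 library at a time, not all members were still called lower in every fit, and those calls were not set beside the share of all tested genes. Left with 1 library, a condition is assumed to vary like the others. The number of genes that met the rule was 30 at a ratio of 4 and 7 at a ratio of 8 (with 16 and 7 of the members), and 16 to 47 without 1 library (47 without solid DTT replicate 2, 30 without liquid control replicate 2 and 27 without solid control replicate 1), since fewer libraries make the rule easier to meet. With a lowest control CPM of 20 it was 14. Between the cultures, 0 members were called in every fit without 1 library. Without DTT 1 member was called with the replicate block and 1 by DESeq2, and under DTT 2 with the replicate block, 2 by DESeq2 and 1 with no filter on low counts, against 0 each as reported, and the cause was not tested. The block changed no other call of members. The difference of the DTT effects gave 0 called members under every alternative run. The culture value of AO090120000058 without DTT ran from -0.923 (without solid control replicate 1) to 1.683 (without solid control replicate 2). The alternatives planned for protein features were not run. The DTT counts had a median over members and libraries of 23.5 reads, and their part in the precision was not tested.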

Other observations

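The deposited coverage fraction, which no comparison uses, was lower by median in the DTT libraries. It did not always follow the reads between replicates. AO090020000137 had 21 reads in each solid DTT library, which covered 37.4% of its length in replicate 1 and 59.0% in replicate 2. Reads covered 0% to 100% of a member's length in the DTT libraries (median 54.2%) and 76.7% to 100% in the control libraries (median 97.9%). AO090003001047 and AO090023000702 stayed at 91.4% or more in every DTT library. AO090001000386 was covered at 18.4% and 50.4% in solid DTT against 86.1% and 97.9% in solid control, and at 9.0% and 11.8% in liquid DTT against 91.3% and 97.3% in liquid control.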
